A study of Arabidopsis thaliana with 9 samples.

Results

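The stretch of the Arabidopsis thaliana chloroplast genome from rbcL to petA holds, in order, rbcL, accD, psaI, ycf4, cemA and petA. The 6 genes were taken because their probe sets carry these names in the array annotation and lie side by side among the chloroplast-encoded genes. This choice was made with earlier results of these data known. Each of the 6 genes had 1 probe set. They are 6 of the 13350 genes named by a probe set of their own. They were compared with the 63 other chloroplast-encoded genes that had a probe set of their own. They were also set against the 13648 of the 22746 probe sets of the array that passed a filter on signal.

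Whole rosettes were collected 15 days after sowing from 3 groups, with 3 biological replicates each: the F1 hybrid between both accessions (labelled C24xCol), the accession C24 and the accession Col-0, here called Col. All 9 samples were grown at 22 °C on agar plates and hybridised singly to single-colour Affymetrix arrays. The labels do not state which accession was the seed parent of the hybrid, how many plants made up a sample or which arrays were processed together.

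Chloroplasts keep a small genome of their own, whose genes encode core parts of the photosynthetic machinery and are often copied into RNA as groups of neighbours. In Arabidopsis this genome passes through the seed parent, so a hybrid carries the chloroplast genome of 1 accession together with nuclear genes of both. A level midway between the parents is therefore an arithmetic mark here, and each parent is given on its own first. Of the 6 genes, rbcL encodes the large subunit of Rubisco, the enzyme that fixes carbon dioxide, and accD a subunit of the plastid acetyl-CoA carboxylase, which starts fatty acid synthesis. psaI encodes a small subunit of photosystem I and ycf4 a protein needed to assemble that photosystem. cemA encodes a protein of the inner envelope membrane, and petA encodes cytochrome f of the cytochrome b6f complex, which passes electrons between the photosystems. In other plants psaI, ycf4, cemA and petA have been found on shared transcripts.

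All 6 genes had lower mean signals in F1 than in Col, and 5 of the 6 fell past the threshold, where 5.08% of the 13648 probe sets tested did so in that direction. accD, ycf4 and cemA also lay below C24, and so below both parents, while rbcL, psaI and petA in F1 overlapped C24. The falls did not follow gene order as a smooth trend, since psaI, the third gene, differed little between groups while its neighbours on either side were lower in F1. Signals are linear MAS5 values, differences are log2 differences from limma with their standard errors (SE), and a call means an adjusted p under 0.05 by the Benjamini-Hochberg method over all probe sets tested. Signals of different probe sets are not on 1 scale, so levels are compared between groups and not between genes. In whole rosettes, fewer chloroplast-rich cells and less RNA per cell cannot be told apart. Whether the probes match the sequences of both accessions equally well was not tested.

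**Figure D1:**
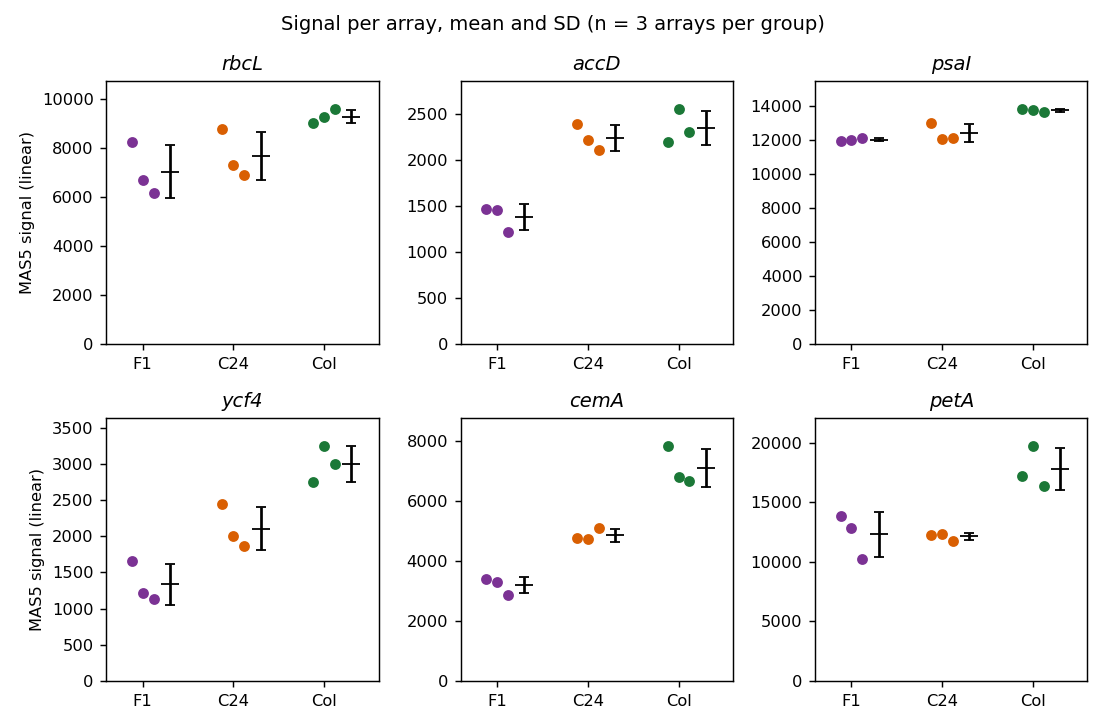
MAS5 signals on linear axes that start at 0 for the 6 genes, with 1 point per array of F1, C24 and Col and a bar for the mean and SD (n = 3 arrays per group). In accD, ycf4 and cemA the 3 F1 arrays lie under every C24 and Col array, whereas in petA the F1 arrays spread on both sides of the C24 arrays.

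rbcL gave signals of 8241, 6678 and 6167 in F1, 8769, 7326 and 6903 in C24, and 9024, 9254 and 9585 in Col. The F1 and C24 arrays overlapped, and both groups lay wholly under Col, whose arrays were close together. F1 was lower than Col by a log2 difference of -0.41 (SE 0.11, adjusted p = 0.0223), with means of 7028 ± 1080 and 9288 ± 282 (SD, n = 3 each). This call was lost without Col replicate 2 or 3 (adjusted p = 0.0679 and 0.0650), without F1 replicate 2 or 3 (0.0794 and 0.0947), after quantile normalization (0.0517), without an intensity trend (0.0963) and with no filter (0.0501). Against C24 the log2 difference in F1 was -0.13 (95% interval -0.36 to 0.10, adjusted p = 0.481). C24 against Col stood at -0.28 (adjusted p = 0.0588), and that difference passed without C24 replicate 1 (0.0187), without F1 replicate 1 or 3 (0.0258 and 0.0469), after median centring (0.0179) and when these groups were fitted alone (0.0305).

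accD stood apart in the hybrid while the parents were alike in range. Its signals were 1465, 1461 and 1217 in F1, against 2389, 2217 and 2103 in C24 and 2194, 2549 and 2301 in Col. Every F1 array lay below every array of either parent, and the parents overlapped. The log2 difference was -0.77 against Col (SE 0.10, adjusted p = 0.000154), a signal lower by a factor of 0.587, and -0.70 against C24 (SE 0.10, adjusted p = 0.000260), a factor of 0.616. Between C24 and Col it was -0.07, with a 95% interval from -0.29 to 0.15 (adjusted p = 0.654). The 2 calls of F1 against a parent held in every alternative run.

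psaI had the smallest difference between F1 and Col among the 6. Its signals were 11954, 12034 and 12159 in F1, 13026, 12074 and 12162 in C24, and 13831, 13764 and 13685 in Col. F1 and C24 overlapped, and all their arrays lay below the Col arrays. The coefficient of variation between replicates was 0.856% in F1, 4.23% in C24 and 0.533% in Col. The log2 difference of F1 against Col was -0.19 (95% interval -0.33 to -0.05, adjusted p = 0.0751), which missed the threshold and passed after median centring (-0.23, adjusted p = 0.0491). Against C24 it was -0.04 (interval -0.18 to 0.10), and C24 against Col was -0.15 (adjusted p = 0.103, and 0.0206 after median centring).

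ycf4 had the lowest ratio of F1 to Col. It gave 1662, 1223 and 1134 in F1, 2448, 2011 and 1865 in C24, and 2756, 3250 and 2994 in Col. The groups formed 3 separate steps, with F1 lowest and Col highest, and replicate 1 was the highest array within F1 and within C24. F1 fell to 1340 ± 283, against 3000 ± 247 in Col (log2 difference -1.18, SE 0.14, adjusted p = 4.31e-05), and against 2108 ± 304 in C24 (-0.66, SE 0.14, adjusted p = 0.00398). C24 was lower than Col by a log2 difference of -0.52 (adjusted p = 0.0102), which was lost without Col replicate 2 (-0.46, adjusted p = 0.0525).

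cemA showed the same 3 steps with less spread. Its signals were 3390, 3316 and 2878 in F1, 4755, 4719 and 5097 in C24, and 7841, 6812 and 6666 in Col. No array of one group reached the range of another. The log2 difference was -1.15 for F1 against Col (SE 0.09, adjusted p = 5.93e-07), -0.61 for F1 against C24 (SE 0.09, adjusted p = 0.000304) and -0.55 for C24 against Col (SE 0.09, adjusted p = 0.000280). These 3 calls held in every alternative run.

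petA, at the far end, differed between Col and the other groups. Its signals were 13836, 12837 and 10190 in F1, 12269, 12348 and 11764 in C24, and 17231, 19719 and 16354 in Col. The F1 arrays spread around the C24 arrays, with replicate 3 below them, and all lay under Col. F1 stood at -0.54 against Col (SE 0.10, adjusted p = 0.00266) and C24 at -0.55 (SE 0.10, adjusted p = 0.000766). Between F1 and C24 the log2 difference was 0.01, with a 95% interval from -0.21 to 0.23 (adjusted p = 0.974), and its sign turned under some of the alternatives.

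Read along the genome, the groups kept 1 order of means in 5 genes, and the steps that passed the test differed from gene to gene. Group means ran F1, C24, Col from low to high in rbcL, accD, psaI, ycf4 and cemA, and C24, F1, Col in petA, where F1 and C24 overlapped. The step between C24 and F1 passed the test in accD, ycf4 and cemA, 3 of the 6, where 6.75% of all probe sets tested were lower in F1 than in C24. The step between Col and C24 passed in ycf4, cemA and petA, 3 of the 6, where 15.2% of all probe sets tested were lower in C24 than in Col. The comparisons of F1 with Col and of C24 with Col share the Col arrays, and those of F1 with the parents share the F1 arrays.

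**Figure D2:**
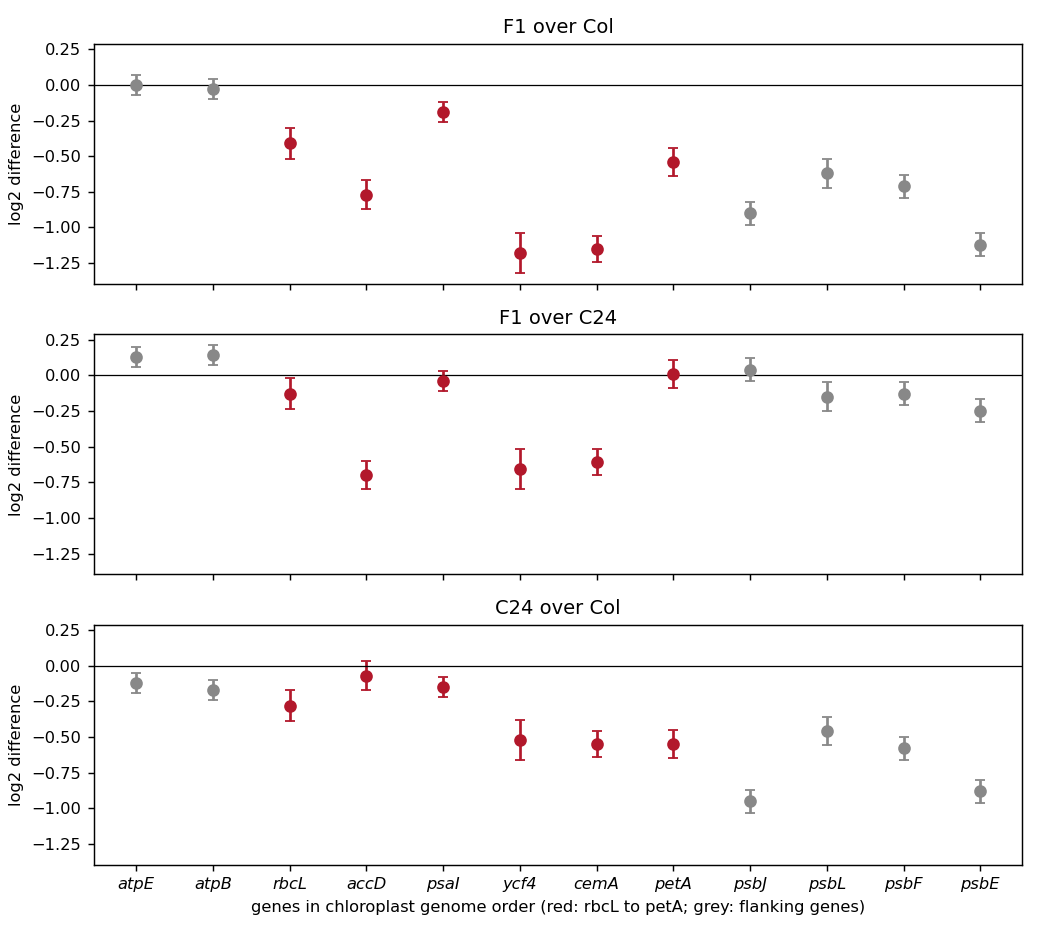
Log2 differences with standard errors, in chloroplast gene order, for F1 over Col, F1 over C24 and C24 over Col (n = 3 arrays per group). The 6 genes from rbcL to petA are red and the 6 flanking genes grey; against C24, accD, ycf4 and cemA lie between -0.70 and -0.61 while psaI and petA lie at -0.04 and 0.01.

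Against the mid-parent level, the mean of both parents' linear signals, the hybrid was lower in accD by a log2 difference of -0.73 (SE 0.09, adjusted p = 0.000127), in ycf4 by -0.95 (SE 0.12, adjusted p = 0.000195) and in cemA by -0.91 (SE 0.08, adjusted p = 5.78e-06). These were 3 of the 6 genes, where 24 of the 63 other chloroplast-encoded probe sets and 1.62% of all probe sets tested were called lower. rbcL stood at -0.28 (adjusted p = 0.137), psaI at -0.12 (adjusted p = 0.314) and petA at -0.29 (adjusted p = 0.0957). Without F1 replicate 1, the F1 array with the highest rbcL, ycf4 and petA signals, rbcL and petA passed as well (-0.40 and -0.38, adjusted p = 0.0311 and 0.0478).

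Below both parents stood accD (adjusted p = 0.00276), cemA (adjusted p = 0.00303) and ycf4 (adjusted p = 0.0460), 3 of the 6 genes, against 0.103% of all probe sets tested. Of the 14 probe sets on the whole array called below both parents, 11 were chloroplast-encoded by name, these 3 and 8 others. The call of ycf4 was the least firm. It was lost without Col replicate 1, 2 or 3 (adjusted p = 0.0677, 0.0809 and 0.0757), without C24 replicate 1 or 2 (0.275 and 0.0990) and without F1 replicate 2 or 3 (0.231 and 0.258). It was also lost after median centring (0.0861), when no filter was used (0.0777) and without an intensity trend (0.350), and that of cemA was lost without an intensity trend (0.0762).

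Where the parents differed past the threshold, the place of F1 relative to them could be put on a scale on which the Col mean is 0 and the C24 mean is 1. The 3 F1 arrays stood at 1.50, 1.99 and 2.09 in ycf4 and at 1.65, 1.69 and 1.88 in cemA, all beyond C24 on the side away from Col. In petA they stood at 0.70, 0.87 and 1.34, around the C24 mean. For rbcL, accD and psaI the parents were not called different and no position is given.

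Ratios of neighbouring genes within an array do not change when the whole array is scaled by 1 factor. They restate the differences given above and show which neighbours parted between the groups. Every pair except ycf4 over cemA sets a brighter probe set against a dimmer one, so place along the stretch and brightness cannot be told apart here. The log2 ratio of psaI over ycf4 was 2.85, 3.30 and 3.42 in F1, 2.41, 2.59 and 2.71 in C24, and 2.33, 2.08 and 2.19 in Col. The ratio was thus higher in every F1 array than in any parental array, by a log2 change of 0.62 against C24 and 0.99 against Col. The log2 ratio of cemA over petA was -2.03, -1.95 and -1.82 in F1, -1.37, -1.39 and -1.21 in C24, and -1.14, -1.53 and -1.29 in Col. F1 was lower by -0.61 against either parent, while C24 and Col overlapped. The ratio of ycf4 over cemA changed by -0.03 for F1 against Col, -0.06 against C24 and 0.03 between C24 and Col, with overlapping groups in each comparison.

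At the other end, the log2 ratio of rbcL over accD was higher in F1 by 0.57 against C24 and 0.36 against Col. That of accD over psaI was lower in F1 by -0.66 against C24 and -0.58 against Col, with no overlap between F1 and either parent in both ratios. With 3 arrays per group the two-sided exact permutation test cannot give a p under 0.1, which these changes reached (adjusted p = 0.167 over 15 ratio comparisons of 5 neighbouring pairs). The test could therefore call none of them at this size, and leaving out 1 array kept the sign of every change named in F1 except those of ycf4 over cemA, which ran from -0.16 to 0.06 against Col and from -0.18 to 0.07 against C24.

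**Figure D3:**
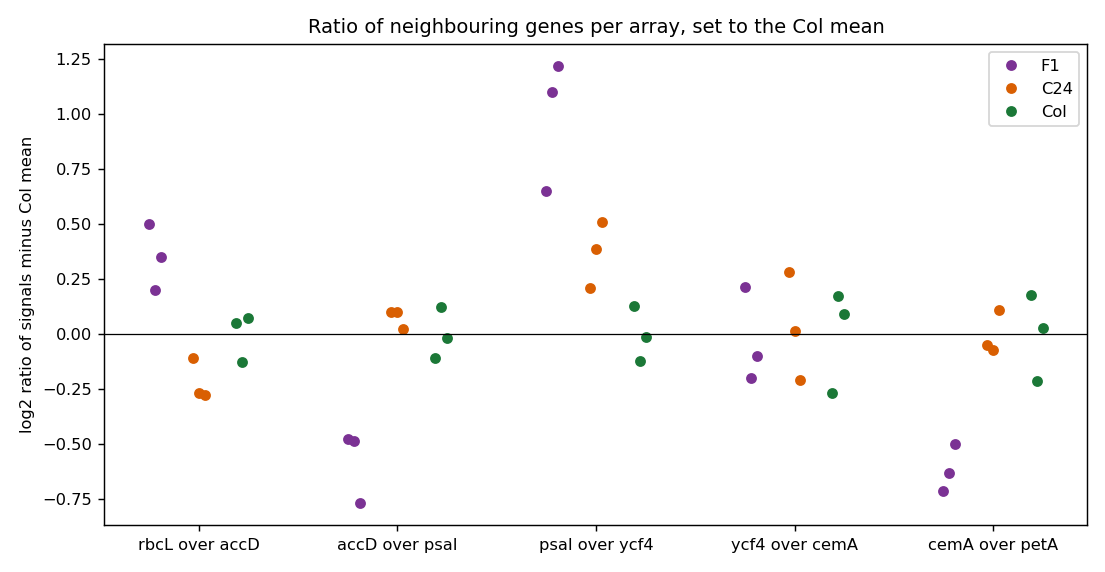
Log2 ratio of signals of neighbouring genes on each array, shifted so that the Col mean of each pair is 0, for F1, C24 and Col (3 arrays each). The F1 arrays lie apart from both parents for every pair except ycf4 over cemA, where the groups overlap.

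The flanking genes gave the same profile a wider frame. Upstream, the ATP synthase genes atpE and atpB stood at 0.00 and -0.03 for F1 against Col, at 0.13 and 0.14 against C24, and at -0.12 and -0.17 for C24 against Col, none of them called. Downstream, psbJ, psbL, psbF and psbE, which encode small subunits of photosystem II and both subunits of cytochrome b559, fell in F1 against Col by log2 differences of -0.90, -0.62, -0.71 and -1.12. All 4 were also lower in C24 than in Col, by -0.95, -0.46, -0.58 and -0.88, as petA was. Against C24, psbE alone of the 4 was lower in F1 (-0.25, adjusted p = 0.0454), and psbJ, psbL and psbF stood at 0.04, -0.15 and -0.13. The falls of accD, ycf4 and cemA below C24 thus had none of that size among these 6 flanking genes. Past psbE, however, the next genes petL and petG fell further against C24 (-0.98 and -3.04). The F1 signals of petG, 147 to 218, were not shown to exceed background. Counted from the lowest ratio of F1 to C24, accD, ycf4 and cemA ranked 11, 13 and 14 of the 69 chloroplast-encoded probe sets, so falls of that size were not particular to this stretch.

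Among the 63 other chloroplast-encoded probe sets, 30 were lower and 6 higher in F1 than in Col, with a median log2 difference of -0.31, against -0.65 over the 6 genes and -0.01 over all probe sets tested. Against C24, 16 were lower and 1 higher, with a median of -0.15, against -0.37 over the 6 genes and -0.02 over all. For C24 against Col, 18 were lower and 8 higher, with a median of -0.16, against -0.40 and 0.03. Low chloroplast signals in F1 were therefore not limited to this stretch, and counted from the lowest ratio of F1 to Col, ycf4 ranked 6 and cemA 8 of the 69. accD ranked 21, petA 28, rbcL 32 and psaI 46.

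**Figure D4:**
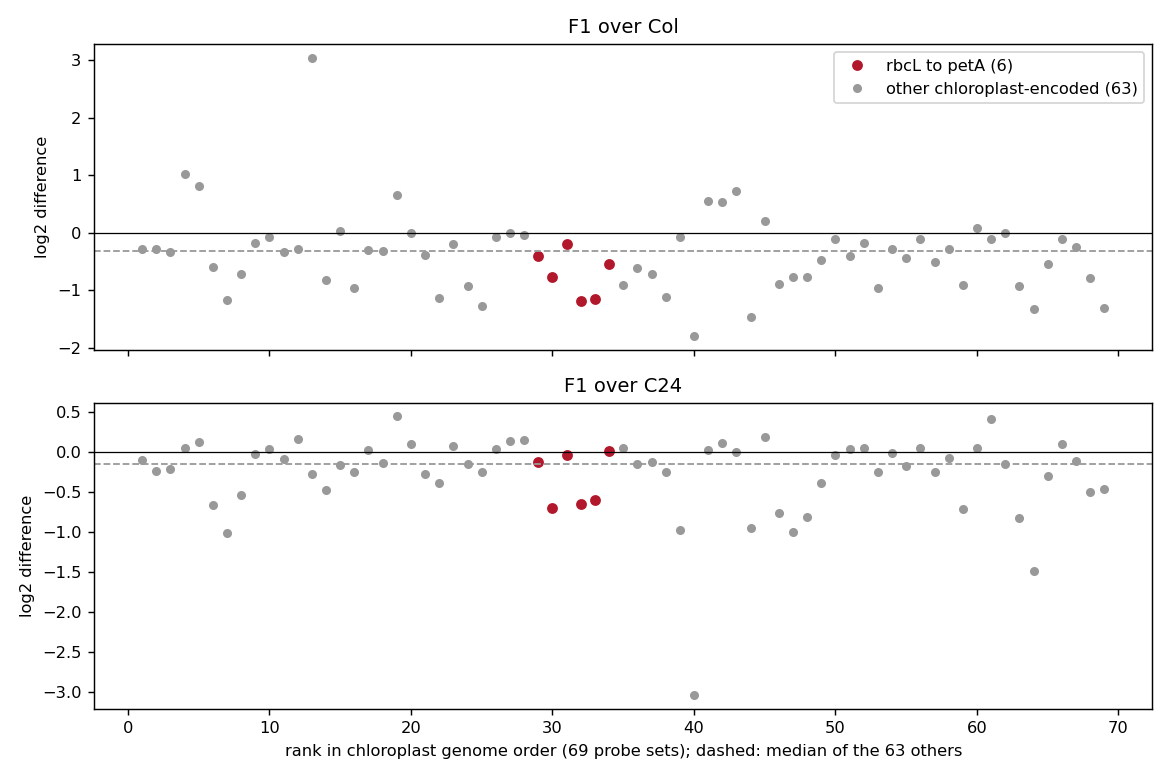
Log2 differences of F1 over Col and F1 over C24 for the 69 chloroplast-encoded probe sets in genome order, with the 6 genes from rbcL to petA in red and the median of the 63 others dashed (-0.31 and -0.15). ycf4 and cemA lie well under that line in both panels, and psaI lies above it.

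To set each gene against the rest of the chloroplast transcripts, the same fit was run after each array was centred on the median of those 63. F1 remained lower than Col in accD (-0.54, adjusted p = 0.00178), ycf4 (-0.95, adjusted p = 0.000107), cemA (-0.93, adjusted p = 1.41e-05) and petA (-0.31, adjusted p = 0.0410). These were 4 of the 6 genes, where 1.68% of all probe sets tested were called lower and 19.9% higher. The chloroplast median was itself lower in F1 than in Col, so this centring raises the other probe sets and keeps the lower share small. The share among the 63 was not counted. rbcL stood at -0.19 and psaI at 0.03, neither called. The call of petA was the weakest of the 4 and was lost in 6 of 9 runs that left out 1 array, by Col replicate 1 or 2, C24 replicate 2 or 3, or F1 replicate 2 or 3 (adjusted p = 0.0872, 0.114, 0.0519, 0.0551, 0.0710 and 0.215). It was lost as well when no filter was used (0.119) and without an intensity trend (0.116).

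On that footing F1 was lower than C24 in accD (-0.70, adjusted p = 0.000186), ycf4 (-0.67, adjusted p = 0.00299) and cemA (-0.61, adjusted p = 0.000946), 3 of the 6 against 5.65%, and each of these calls held without any single array. C24 was lower than Col in cemA (-0.32, adjusted p = 0.0271) and petA (-0.32, adjusted p = 0.0223), 2 of the 6. Of all probe sets tested, 7.58% were called lower and 32.6% higher in that comparison, where the centring acts in the same way. The count among the 6 was 0 without Col replicate 1 or C24 replicate 1, 1 without Col replicate 2 or C24 replicate 2 or 3, and 3 without F1 replicate 1.

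By rank, brightness moved with the differences of F1 from either parent, and little with those of C24 from Col. The 69 chloroplast-encoded probe sets share the arrays and are not independent. Across them, mean log2 signal and log2 difference had Spearman's rho of 0.43 (F1 over Col), 0.60 (F1 over C24) and -0.07 (C24 over Col). Pearson's r was 0.14, 0.44 and -0.21 in the same order. Of the 34 dimmer probe sets 17 were lower in F1 than in C24, against 2 of the 35 brighter ones, and against Col the counts were 22 of 34 and 13 of 35. accD, ycf4 and cemA, with mean log2 signals of 10.92, 10.98 and 12.22, belong to the dimmer ones, and rbcL, psaI and petA, with 12.95, 13.63 and 13.75, to the brighter. The part of brightness in the differences between the 6 genes was not tested.

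**Figure D5:**
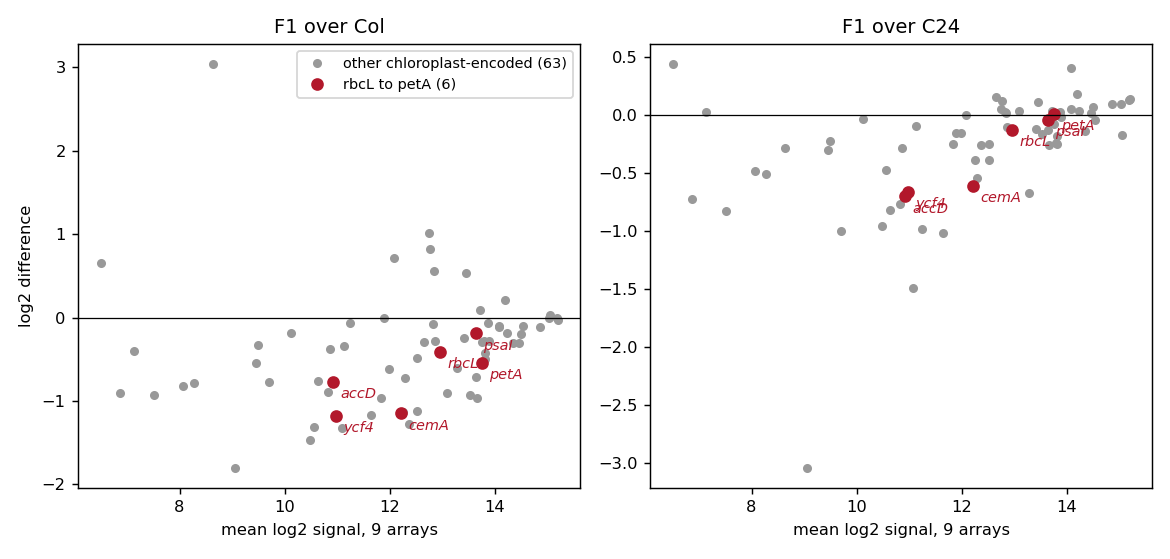
Log2 difference of F1 over Col and F1 over C24 against the mean log2 signal over 9 arrays, 1 point per chloroplast-encoded probe set, with the 6 genes from rbcL to petA in red. Against C24, the dimmer accD, ycf4 and cemA lie at -0.70 to -0.61, and the brighter rbcL, psaI and petA at -0.13 to 0.01.

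Few of the listed marker genes were named in this annotation. Of 12 green-leaf markers 2 were named, LHCB4.1 and LHCB4.2, antenna proteins encoded in the nucleus, and their summed signal was 61451 to 64797 in F1, 50461 to 53674 in C24 and 63420 to 68684 in Col. Of 3 root markers 2 were named, PYK10 and EXP7, with sums of 1834 to 2123 in F1, 88.0 to 174 in C24 and 2500 to 2958 in Col. The differences in these sums were those of PYK10, with means of 1985 in F1, 92.0 in C24 and 2726 in Col. EXP7 did not move, at 26.4, 26.6 and 24.1, under the filter's signal of 89.9. None of the flower and seed markers was named. The median signal of the 63 other chloroplast probe sets was 6334 to 6599 in F1, 6211 to 6687 in C24 and 7100 to 8105 in Col. The part of these shifts in the results was not tested.

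Partners of the 6 proteins were followed through lists of genes for the same complexes. For Rubisco and its assembly, 5 of 15 further genes were tested. BSD2 (AT3G47650), a chaperone gene for Rubisco assembly, averaged 15010 ± 873 in F1, 12156 ± 493 in C24 and 12939 ± 1158 in Col (SD, n = 3 each) and was higher in F1 than in C24 (0.30, adjusted p = 0.0189). Against the mid-parent 0 of the 5 were called in limma, with 1 at an unadjusted p under 0.05. The annotation named no probe set for the small-subunit genes of the list.

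For acetyl-CoA carboxylase, 3 of 8 further genes were tested, all for biotin/lipoyl attachment domain-containing (BADC) proteins that bind the enzyme. The annotation named no probe set for the other genes of the list, so further subunits of the enzyme were not followed. Of the 3 BADC genes, 0 were called in F1 against either parent or the mid-parent, where accD fell in all 3 comparisons. In limma, 1 of them had an unadjusted p under 0.05 for F1 against C24 and 0 in the other F1 comparisons. BADC1 (AT3G56130), which encodes a biotin/lipoyl attachment domain-containing protein that binds the enzyme, averaged 703 ± 20.6 in F1, 562 ± 37.7 in C24 and 723 ± 51.1 in Col, and was lower in C24 than in Col (-0.36, adjusted p = 0.0189). The difference between accD and these genes was not tested.

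For photosystem I, 6 of 16 further subunit genes were tested. Chloroplast-encoded psaC, the subunit that carries the terminal iron-sulphur clusters, averaged 124 ± 27.8 in F1, 217 ± 11.7 in C24 and 232 ± 12.0 in Col. It fell in F1 against C24 (-0.83, adjusted p = 0.00857) and against Col (-0.93, adjusted p = 0.00542). Its F1 signals of 92.2 to 141 lay near the filter's signal of 89.9 and were not shown to exceed background. Chloroplast-encoded psaJ went the other way, at 8388 ± 362 in F1, 8274 ± 274 in C24 and 5768 ± 1051 in Col, and was higher than Col in F1 (0.56, adjusted p = 0.00301) and in C24 (0.54, adjusted p = 0.00131). The nuclear PSAN was lower in C24 than in Col (-0.22, adjusted p = 0.0327), with -0.04 in F1 against Col.

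Of the assembly genes of that photosystem, 2 of 5 others were tested. ycf3, a chloroplast gene whose product acts beside that of ycf4, averaged 3439 ± 268 in F1, 4492 ± 15.8 in C24 and 7506 ± 550 in Col. It fell in F1 against Col (-1.13, adjusted p = 3.62e-07) and C24 (-0.39, adjusted p = 0.00542), and in C24 against Col (-0.74, adjusted p = 7.44e-06), the order seen for ycf4. The other gene tested, a nuclear one, was called in none of the comparisons in limma. It stood at 0.04 for F1 against Col, -0.01 against C24 and 0.05 for C24 against Col.

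For cytochrome b6f and its assembly, 9 of 15 further genes were tested: 3 were lower in F1 than in Col and 0 higher, and 2 were lower and 2 higher than in C24. petG, a small subunit gene, averaged 176 ± 37.6 in F1, 1426 ± 106 in C24 and 610 ± 92.5 in Col, and petL, another, 1919 ± 225 in F1, 3841 ± 968 in C24 and 2004 ± 77.0 in Col. Both fell in F1 against C24 (-3.04 and -0.98, adjusted p = 4.39e-09 and 0.000207), where petA did not differ past the threshold. petN averaged 199 ± 27.9 in F1, 287 ± 101 in C24 and 349 ± 18.8 in Col and fell against Col (-0.82, adjusted p = 0.0164). In F1 the signals of petG (147 to 218) and petN (179 to 231) lay near the array medians of 159 to 174. They were not shown to exceed background.

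Beside cemA, 2 nuclear genes tied to plastid pH and ion balance were listed and 0 were called in limma in any comparison, also at an unadjusted p under 0.05. The brighter, FLAP1 (AT1G54520), averaged 2591 ± 173 in F1, 2357 ± 82.7 in C24 and 2493 ± 113 in Col. Of the plastid transcription genes, 4 of 12 were tested, all of them chloroplast-encoded polymerase subunits. rpoB averaged 750 ± 38.4 in F1, 913 ± 33.4 in C24 and 93.2 ± 25.3 in Col, where its signals of 76.9 to 122 lay around the filter's signal of 89.9 and were not shown to exceed background. It was higher than Col in F1 (3.04, adjusted p = 6.87e-09) and in C24 (3.33, adjusted p = 6.44e-10), and rpoC1 was lower than Col in F1 (-0.29, adjusted p = 0.0381) and in C24 (-0.45, adjusted p = 0.000751), while the other two were called in none of the comparisons in limma, 1 of them with an unadjusted p under 0.05 against Col.

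The named probe sets most like each gene were ranked by Pearson's r of log2 signals over the 9 arrays, among 7353 candidates, as a description that mostly follows the differences between the 3 groups. For accD these were atpF (0.958), psbH (0.954) and atpH (0.952), all chloroplast-encoded. For ycf4 they were the chloroplast-encoded rpl20 (0.975) and ndhH (0.960) and the nuclear UGT78D2 (0.941), and for cemA the nuclear AT4G39680 (0.968) and the chloroplast-encoded ycf3 (0.960) and ndhH (0.958). rbcL came closest to QKY (0.971), psbD (0.918) and AT5G12470 (0.917), of which psbD is chloroplast-encoded. For psaI all were nuclear, AT4G38660 (0.967), AGL24 (0.961) and AT3G61670 (0.959), as they were for petA, AT5G12470 (0.978), AT5G35530 (0.966) and AT3G58140 (0.945).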

How the data were processed

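Total RNA of 9 rosette samples (3 per group) was labelled with biotin by the array maker's standard procedure, per the labels' protocols. Such procedures commonly prime with oligo(dT), and most chloroplast transcripts lack a stable poly(A) tail, so signals stand for labelled RNA that bound the probes. The primer is not given in the sources used here. The deposited intensity values are linear signals made by the authors with MAS5, per the submitters' processing notes. Their 2% trimmed means lay between 500.049 and 500.054, so the arrays share 1 scaling target and differences are relative to the rest of the array. Median signals ran from 159 to 174. Arrays give no read depth, and their number limits the precision.

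Of 22810 probe sets 64 controls were left out. The platform annotation named 1 gene for 13513 and several for 503, and none was named from a probe set with several. RefSeq (TAIR10.1) gave gene order and chloroplast genes. No sequence is printed.

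Signals were log2-transformed without further scaling, probe sets under the 40th percentile of mean log2 signal (6.49, a signal of 89.9) were left out, and 13648 were fitted in limma 3.58.1 (R 4.3.3; 3 group means, eBayes with an intensity trend). All 6 genes and all 69 chloroplast-encoded probe sets passed. Two-sided p-values were adjusted by Benjamini-Hochberg over the whole table. The mid-parent SE came from the delta method. For a position beyond both parents the larger p of F1 against either parent was used, and set to 1 where the signs differed. The fit was tested on simulated data.

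Genes named are the 6, their 6 flanking genes, up to 3 called genes per list by the p against the mid-parent (else the brightest), and the 3 most alike by r. A gene that this rule names is not reported here. The members and lists were chosen with earlier results of these data known. Alternatives were scaling, filter, pseudocount, eBayes settings, replicate block, the groups fitted, the mid-parent scale and leaving out each array. The labels call replicates biological but give no batch.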

Additional observations from a re-analysis of the deposited data

How the results depend on the processing

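The counts of the 6 genes called were 5 for F1 against Col, 3 for F1 against C24, 3 for C24 against Col, 3 against the mid-parent and 3 below both parents. Leaving out 1 array gave 4 to 5, 3 to 3, 2 to 4, 3 to 5 and 2 to 3. After median centring 5 genes were called for C24 against Col, and without an intensity trend 1 below both parents. Adjusting positions beyond both parents separately by direction, chosen after seeing the data, left 2, with ycf4 at an adjusted p of 0.224. Relative to the other chloroplast-encoded probe sets, the count for C24 against Col was 2, and it was 1 with no filter, 0 without an intensity trend and 0 to 3 without 1 array. The cause was not tested.

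Signs turned only in differences near 0 that were not called. petA in F1 against C24 was -0.04 after quantile normalization and -0.08 to 0.14 without 1 array. Relative to the other chloroplast-encoded probe sets it was -0.10 to 0.13 without 1 array, psaI was -0.05 in F1 and -0.05 in C24 against Col with the 60th percentile filter and -0.02 to 0.07 in F1 against Col without 1 array, and rbcL in C24 against Col was -0.13 to 0.01. With the replicate number as a block the counts were 5, 3, 4, 4 and 3, as rbcL passed for C24 against Col (adjusted p = 0.0279) and petA against the mid-parent (adjusted p = 0.0375). Deviations of same-numbered arrays had r of 0.09 to 0.12 over probe sets, except Col replicate 2 with C24 and F1 replicate 2 (0.00 and 0.02), and those of differently numbered arrays -0.11 to 0.02. Pairing by number was therefore not established, and it remains a hint from the data. With 3 arrays per group, small differences such as those of psaI are at the limit of what can be called.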
